A study of Homo sapiens with 6 samples.

Results

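The BCL2 family decides whether a cell permeabilises its mitochondria, and 10 of its genes were examined here: the effectors BAX and BAK1, the guardians BCL2, BCL2L1 and MCL1, and the BH3-only genes BID, BAD, BBC3, PMAIP1 and BCL2L11. Members were taken by name, as every probe set of the array annotated to a single gene that is one of the 10. That gave 32 of 54613 probe sets, for 9 of the 10 genes. The only BBC3 probe set is also annotated to 2 other genes, so BBC3 (PUMA) was not described. Of the 32, 28 were bright enough to test, which meant a signal over the median of its array on 3 or more of the 6 arrays.

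The arrays hold total RNA of NCI-H292, a human lung carcinoma cell line with mucoepidermoid features. Cells of the CT45A1 overexpression group (3 arrays) had been stably transfected with CT45A1 joined to the fluorescent protein Venus. Those of the CT45A1 negative group (3 arrays) carried Venus alone. The CT45A1 protein belongs to the cancer/testis antigens, whose genes are normally read mainly in testis. All cells were grown in the same serum-containing medium, and no agent that induces apoptosis is named in the labels. The labels do not say whether a group is 1 clone or a pool, nor whether the replicates were separate cultures, so the p-values rest on array-to-array spread alone, and that spread may be technical.

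BAX and BAK1 form the pores through which cytochrome c leaves mitochondria. BCL2, BCL-XL (from BCL2L1) and MCL1 hold them in check, and BH3-only proteins such as BIM (from BCL2L11), BID, BAD and NOXA (from PMAIP1) relieve that restraint or activate the effectors directly. MCL1 and NOXA are short-lived proteins, BID is cut by caspase-8, and BAD is held by 14-3-3 proteins when phosphorylated, so much of this control lies after transcription and was not measured on these arrays.

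Values are MAS5 signals, linear brightness units per probe set, and each difference is the mean log2 signal of the overexpression arrays less that of the negative arrays. A difference passed when limma's adjusted p over all 27618 tested probe sets was under 0.05. The brighter of the probe sets shared by 9 CT45 genes read 518, 700.1 and 445 on the overexpression arrays and 23.1, 15.8 and 1.95 on the negative ones, higher wherever the label says so. The array medians were 79.2 to 83.4 in the overexpression group and 72.6 to 75.6 in the negative group, and centring each array on its median would lower every difference by 0.145. The ratio of the actin control probe sets at the 3' and 5' ends, which falls with intact RNA and long labelled product, was 1.42 to 1.55 in the overexpression group against 1.65 to 1.91, so it moved with the group for every result below. With each gene read at its brightest probe set, all 9 epithelial markers examined (keratins, EPCAM, CDH1, claudins and MUC1) lay above the array median on all 6 arrays, although KRT19, KRT7 and CLDN4 each have a further probe set below it on all 6. Their summed signal was lower with CT45A1, at 79419 to 79914 against 82134 to 87741, and 1 of the 9, KRT18, passed (-0.25, limma adjusted p = 0.0393). Of 9 markers of blood, endothelial and mesenchymal cells taken in the same way, PTPRC, COL3A1, LUM and VWF lay below the median on all 6 arrays and PECAM1, CDH5 and ACTA2 above it. The summed signal of these 9 was 945 to 1104 with CT45A1 and 870 to 930 without it. The part of either marker list in the results was not tested.

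BAX passed as lower with CT45A1 at both its probe sets. The guardians MCL1 and BCL2L1 passed as lower at 1 of 6 and 1 of 4 tested probe sets. The BH3-only gene BCL2L11 passed as higher at 1 of 7. Counting probe sets that did not pass as well, the difference was below 0 at 4 for MCL1 and 4 for BCL2L1, and above 0 at 7 for BCL2L11. Of all tested probe sets, 44.5% were below 0 as deposited, and this balance depends on the scaling. In all, 5 of the 28 tested probe sets passed, 4 lower and 1 higher, where 3.23% of all tested probe sets passed, 1.34% lower and 1.89% higher. The members were chosen with earlier results of these data known, so these shares are given as a description. The arrays of both groups did not overlap at 13 of the 28, where 26.6% of all tested probe sets were separated in that way. The median difference of the 28 was -0.06, beside 0.03 over all tested probe sets. BAK1, BCL2, BID, BAD and PMAIP1 had no probe set that passed. Without limma's variance trend 0 of the 28 passed, and 4 of all tested probe sets. After centring on the array median 9 of the 28 passed, 8 lower and 1 higher, among 2975 probe sets in all, of which 13% were higher, against 58.5% as deposited.

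**Figure D1:**
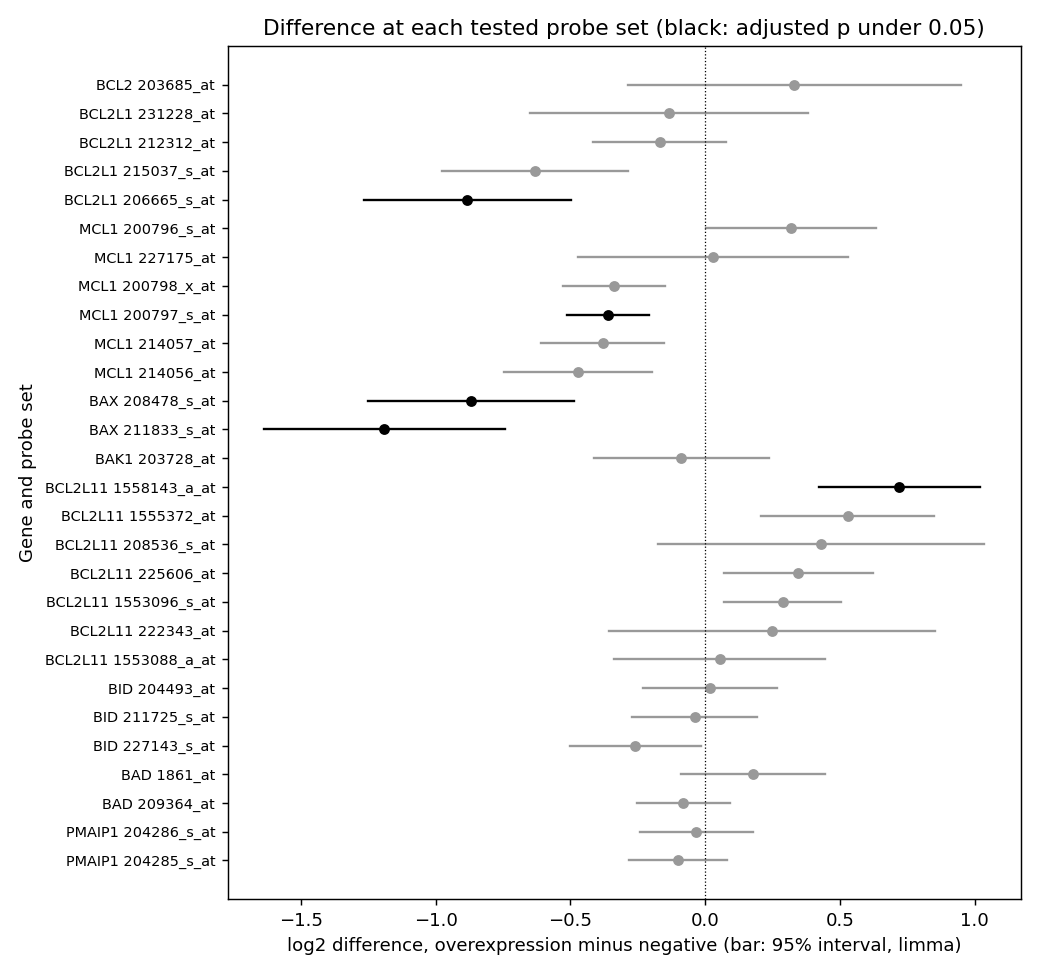
Log2 difference (overexpression minus negative, horizontal axis) at each of the 28 tested probe sets, ordered from guardians through effectors to BH3-only genes; points are limma estimates from 3 arrays per group, bars are 95% intervals not adjusted for the number of tests, and black marks an adjusted p under 0.05. Both BAX probe sets lie below 0, all 7 BCL2L11 probe sets lie above 0, and MCL1 and BCL2L1 probe sets spread from near 0 or above to clearly below.

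BAX, the cytosolic effector that inserts into the mitochondrial outer membrane, showed the largest difference among the tested members. At probe set 211833_s_at its signal was 315, 227 and 415 on overexpression replicates 1, 2 and 3. The negative replicates read 614, 697 and 822. Every overexpression array lay below every negative array. BAX fell there by 1.19 on the log2 scale (SE 0.20, limma adjusted p = 0.0155, n = 3 per group), 2.28-fold, as the mean log2 signal went from 9.46 ± 0.21 (SD) to 8.27 ± 0.44.

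At the other BAX probe set, 208478_s_at, the signals were 293, 309 and 231 against 456, 441 and 633. The groups again did not overlap, with negative replicate 3 the highest array at both probe sets. BAX fell there by 0.87 (SE 0.17, limma adjusted p = 0.0283), 1.83-fold. In RNA of a whole culture, less transcript in every cell and fewer cells with it cannot be told apart. When the actin ratio entered the fit, BAX differed by -0.76 and -0.56 at these probe sets (limma adjusted p = 0.275 and 0.365). The actin ratio did not overlap between the groups, and the SE at 208478_s_at rose from 0.17 to 0.30 in that fit. The first call was lost without overexpression replicate 1 (adjusted p = 0.0557), and the second without overexpression replicates 1, 2 or 3 or negative replicate 1 (adjusted p = 0.0768, 0.0741, 0.0748 and 0.0706).

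The DNA just before the RefSeq start of BAX and of BCL2L11 is shown because these members moved in opposite directions. Each run is 250 bases of GRCh38.p14 on the plus strand, BAX at chr19:48954625-48954874 and BCL2L11 at chr2:111120664-111120913. Capitals mark the E-box CACGTG, which reads the same on both strands and is a binding motif of MYC, MAX and USF proteins, and the GC box GGGCGG, searched on both strands and bound by SP1.
BAX: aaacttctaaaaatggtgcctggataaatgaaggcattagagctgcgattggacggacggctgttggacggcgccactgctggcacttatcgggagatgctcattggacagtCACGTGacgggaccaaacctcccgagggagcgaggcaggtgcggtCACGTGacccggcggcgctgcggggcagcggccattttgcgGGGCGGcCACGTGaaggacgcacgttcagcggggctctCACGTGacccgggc
BCL2L11: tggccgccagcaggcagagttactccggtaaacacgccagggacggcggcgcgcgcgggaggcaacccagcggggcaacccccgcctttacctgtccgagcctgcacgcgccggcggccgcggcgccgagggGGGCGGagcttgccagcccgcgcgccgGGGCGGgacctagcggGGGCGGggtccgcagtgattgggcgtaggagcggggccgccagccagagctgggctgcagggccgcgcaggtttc
The BAX window holds 4 E-boxes and 1 GC box, and the BCL2L11 window 0 and 3. Of 35114 such windows in the RefSeq table, 6.35% hold an E-box and 42.6% hold a GC box. At least 4 E-boxes, a threshold set by the BAX count, are held by 0.0142% (5 windows, that of BAX included). Both BCL2L1 windows in that table hold 0 of either motif. MCL1, which also passed, has no window there, so 3 of the 4 passing members are covered. These matches describe letters only, and no occupancy was measured.

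BAK1, the effector that already sits in the outer membrane, did not pass. Its signal was 353, 325 and 428 with CT45A1 and 360, 369 and 445 without it, and the groups overlapped. The difference was -0.09 (SE 0.15), with a 95% interval of -0.41 to 0.24 (limma adjusted p = 0.775). That interval does not reach the fall estimated at either BAX probe set, although the difference between the effectors was not tested. It was 0.28 with the actin covariate and 0.0071 without negative replicate 3, so its direction was not settled.

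MCL1, a guardian that holds BAK1 and BIM, was lower at its probe set 200797_s_at. The signals were 7788, 8030 and 7998 on the overexpression arrays and 9269, 10685 and 10703 on the negative ones. The overexpression arrays lay close together and all below the negative ones. MCL1 fell there by 0.36 (SE 0.07, limma adjusted p = 0.0237), 1.28-fold, from 13.32 ± 0.12 to 12.95 ± 0.02 (SD, n = 3).

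The other 5 MCL1 probe sets did not pass, and they pointed in different directions. Probe sets 200798_x_at, 214056_at and 214057_at differed by -0.34, -0.47 and -0.38 (limma adjusted p = 0.0620, 0.0694 and 0.0762), each with no overlap between the groups. At 200796_s_at the signal was 379, 314 and 301 with CT45A1 and 271, 253 and 270.2 without it, a difference of 0.32 in the opposite direction (limma adjusted p = 0.237). The last one, 227175_at, differed by 0.03 (95% interval -0.47 to 0.53) and took either sign across settings. The call at 200797_s_at was lost with cyclic loess (-0.28, adjusted p = 0.0694), with the actin covariate (-0.28, adjusted p = 0.243), and without overexpression replicate 1 or 2 or negative replicate 2 (adjusted p = 0.0929, 0.0944 and 0.0758).

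BCL2L1, whose transcript is spliced into a long protective form, BCL-XL, and a short form that promotes death, differed by probe set. At 206665_s_at the signals were 137, 129 and 121 with CT45A1 and 226, 254 and 235 without it. These groups were well apart, with an SD of 0.09 on the log2 scale in each. BCL2L1 fell there by 0.88 (SE 0.17, limma adjusted p = 0.0274), 1.84-fold.

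At 215037_s_at the signals were 194, 230.3 and 183 against 299, 343 and 297, also without overlap. The difference was -0.63 (limma adjusted p = 0.0567), and it passed after quantile normalization, cyclic loess and median centring (adjusted p = 0.0337, 0.0345 and 0.0142). At 212312_at the signals were 1829, 1651 and 1932 against 1823, 2399 and 1890.4, and the groups overlapped. The difference was -0.17, with a 95% interval of -0.41 to 0.08 (limma adjusted p = 0.422). The last probe set, 231228_at, differed by -0.13 (limma adjusted p = 0.790) and its groups overlapped.

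The log2 ratio of 206665_s_at to 212312_at, formed within each array, was -3.74, -3.67 and -3.99 with CT45A1 and -3.01, -3.24 and -3.01 without it. It was lower on all 3 overexpression arrays, by 0.72 on average. Its two-sided exact permutation p was 0.1, the smallest that 3 against 3 arrays allow. The numerator was picked for its smallest p among the BCL2L1 probe sets, which favoured this direction, so the ratio is given as values only. Which splice form each probe set reads was not tested. The call at 206665_s_at was also lost without a filter on dim probe sets (adjusted p = 0.0544), with the actin covariate (-1.01, adjusted p = 0.150) and without any single array except negative replicate 3 (adjusted p = 0.0655 to 0.0976).

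**Figure D2:**
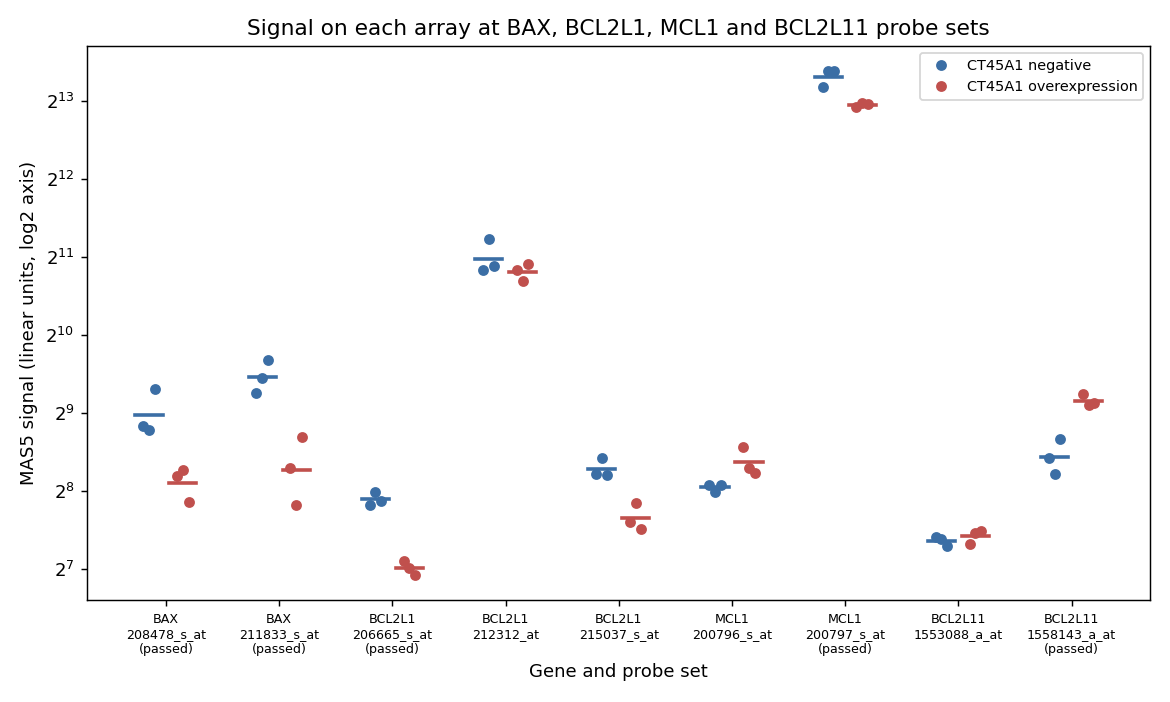
MAS5 signal (vertical axis, linear units drawn on a log2 axis) on each of the 6 arrays at 9 probe sets of BAX, BCL2L1, MCL1 and BCL2L11; points are arrays, short lines are group means of the log2 signal, blue is CT45A1 negative and red is CT45A1 overexpression. Blue lies wholly above red at both BAX probe sets, at BCL2L1 206665_s_at and 215037_s_at and at MCL1 200797_s_at. Red lies wholly above blue at BCL2L11 1558143_a_at and, against the MCL1 fall, at MCL1 200796_s_at. BCL2L1 212312_at and BCL2L11 1553088_a_at overlap. Heights of different probe sets are not comparable.

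BCL2, the founding guardian, was near the lower edge of the measurable range. At 203685_at, the only one of its 4 probe sets bright enough to test, the signals were 129, 121 and 104 with CT45A1 and 123, 88.1 and 75.6 without it. The groups overlapped. The difference was 0.33 (SE 0.28), with a 95% interval of -0.29 to 0.95 (limma adjusted p = 0.535), and it became -0.14 once the actin ratio entered the fit. The other 3 probe sets lay below the array median on all 6 arrays, between 5.05 and 65.1 units, and give no level.

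BCL2L11, which encodes BIM, a BH3-only protein that binds all the guardians, was the member with a rise. At 1558143_a_at the signals were 608, 549 and 560 on the overexpression arrays and 342, 299 and 408 on the negative ones. All overexpression arrays lay above all negative ones. BCL2L11 rose there by 0.72 (SE 0.14, limma adjusted p = 0.0227), 1.65-fold, from 8.44 ± 0.22 to 9.16 ± 0.08 (SD, n = 3). The rise was 0.58 after centring on the array median (adjusted p = 0.0212) and 1.01 once the actin ratio entered the fit (adjusted p = 0.0485).

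The other 6 BCL2L11 probe sets did not pass, and their differences were all above 0 as deposited. Probe set 1555372_at read 416, 477 and 489 against 332, 269 and 362, without overlap, and differed by 0.53 (limma adjusted p = 0.0775). Probe set 1553096_s_at read 768, 765 and 759 against 598, 598 and 685, also without overlap, and differed by 0.29 (limma adjusted p = 0.135). For 225606_at, 208536_s_at and 222343_at the differences were 0.35, 0.43 and 0.25, and the groups overlapped. At 1553088_a_at the difference was 0.05 (95% interval -0.34 to 0.45), and it was -0.09, -0.08 and -0.07 after median centring, quantile normalization and cyclic loess.

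The log2 ratio of 1558143_a_at to 1553088_a_at was 1.93, 1.64 and 1.65 with CT45A1 and 1.01, 0.84 and 1.37 without it. It was higher on all 3 overexpression arrays (difference 0.67, exact permutation p = 0.1, the smallest possible). These probe sets were picked as the BCL2L11 ones with the smallest p and the smallest difference. The direction of the ratio was therefore fixed by that choice, and it is given as values only. Without overexpression replicates 1, 2 or 3 or negative replicates 1 or 2 the call at 1558143_a_at was lost, with adjusted p of 0.0916, 0.0869, 0.058, 0.076 and 0.0626.

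BID, the BH3-only protein that links death receptors to mitochondria, did not pass at its 3 probe sets. At 211725_s_at the signals were 1029, 1156 and 969 against 1197, 988 and 1054, a difference of -0.04 (95% interval -0.27 to 0.19). At 204493_at the difference was 0.02 (95% interval -0.23 to 0.27). Probe set 227143_s_at read 499, 585 and 605 with CT45A1 and 699, 637 and 679.5 without it. These groups did not overlap, but the difference of -0.26 had a limma adjusted p of 0.217.

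BAD, which neutralises BCL2 and BCL-XL, did not pass at its 2 tested probe sets. At 209364_at the signals were 1737, 1567 and 1767 against 1753, 1782 and 1820, a difference of -0.08 (95% interval -0.25 to 0.09). At 1861_at they were 934, 1050.2 and 1168 against 946, 1039 and 805, a difference of 0.18 in the opposite direction (95% interval -0.09 to 0.44). The groups overlapped at both. The third BAD probe set, 232660_at, lay below the array median on all 6 arrays.

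PMAIP1, which encodes NOXA, a partner of MCL1, did not pass either. At 204285_s_at the signals were 2323, 2196 and 2215 with CT45A1 and 2540, 2172 and 2527 without it. The groups overlapped, and the difference was -0.10 (95% interval -0.28 to 0.08, limma adjusted p = 0.516). At 204286_s_at it was -0.03 (95% interval -0.24 to 0.18). Both intervals stay within 0.28 of 0 in either direction on the deposited scale, short of the falls estimated for BAX.

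Ratios between members are unaffected by how an array is scaled as a whole. These join probe sets that had passed, each picked for the smallest p of its gene, so they are given as values only. For BCL2L11 to MCL1, which passed in opposite directions, that choice fixed the direction. BAX and MCL1 both passed as lower, so passing alone did not fix the direction of their ratio. The log2 ratio of BCL2L11 at 1558143_a_at to MCL1 at 200797_s_at was -3.68, -3.87 and -3.84 with CT45A1 and -4.76, -5.16 and -4.71 without it, higher by 1.08. The ratio of BAX at 211833_s_at to the same MCL1 probe set was -4.63, -5.14 and -4.27 against -3.92, -3.94 and -3.70, lower by 0.83. In all, 6 ratios were formed, these and others within BCL2L1, MCL1 and BCL2L11, and all were chosen after the values were seen. The denominators within a gene had not passed, and neither had the numerator of 215037_s_at to 212312_at. The ratio within MCL1, 200797_s_at to 200796_s_at, joined the smallest p to the largest rise. Each of the 6 had an exact permutation p of 0.1, the smallest possible and also 0.1 after Benjamini-Hochberg adjustment.

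**Figure D3:**
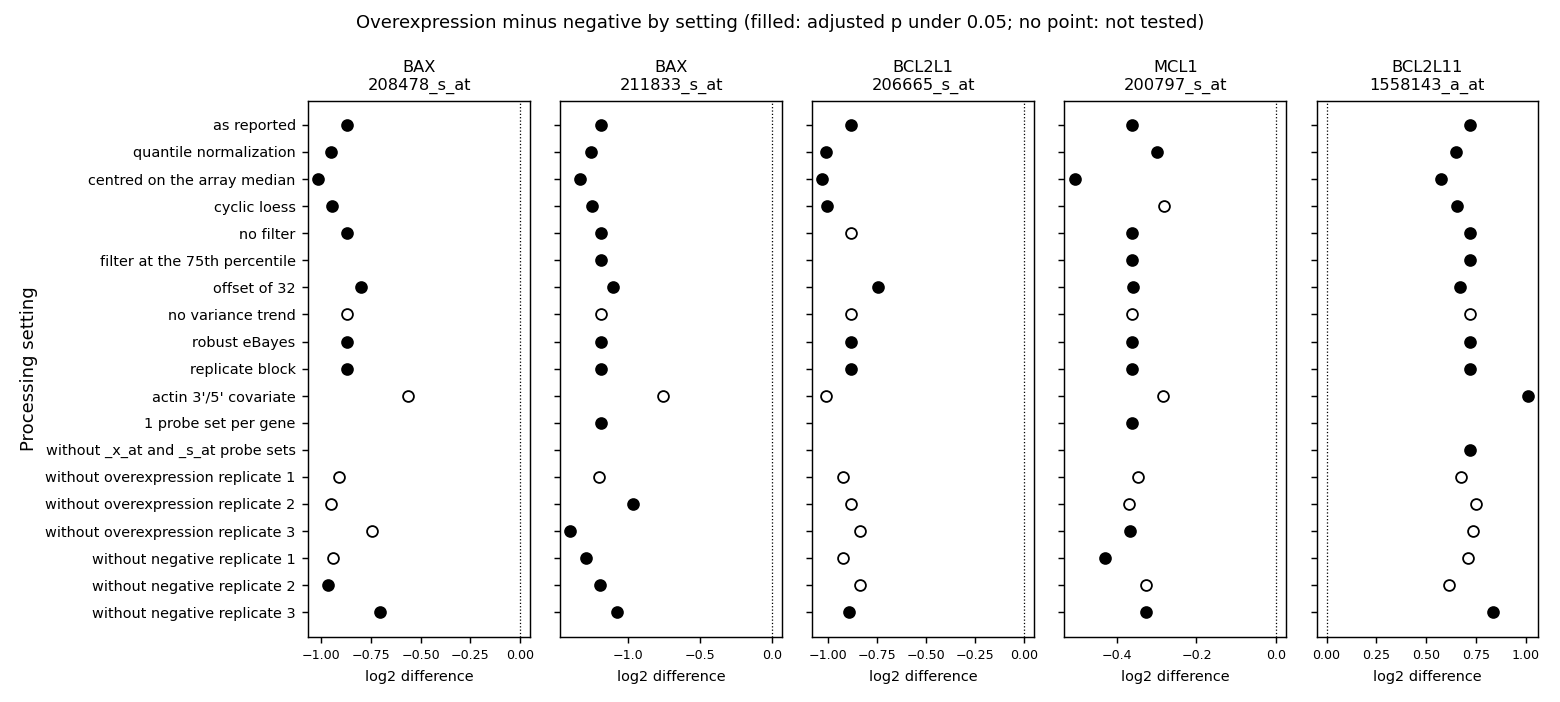
Log2 difference (overexpression minus negative, horizontal axes, 1 scale per panel) at the 5 probe sets that passed, under each processing setting (vertical axis); filled points had an adjusted p under 0.05, open points did not, and no point means that the probe set was not tested in that setting. Every point keeps the direction reported, while all 5 points are open without the variance trend.

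Among the other genes of the pathway, 6 lists held 80 genes, of which 73 were matched to probe sets and 69 were bright enough to test. A gene was counted when at least 1 of its probe sets passed. That gave 3 genes higher and 3 lower, through 8 of 169 probe sets (4.73%, beside 3.23% of all tested probe sets). The lists were chosen with earlier results of these data known, so these counts are given as a description. Of 12 other BCL2 family genes and partners tested, only BCLAF1 passed, at 1 of the 24 tested probe sets of that list. BCLAF1, a nuclear protein, rose by 0.51 at 201101_s_at (limma adjusted p = 0.00875, and 0.0597 without overexpression replicate 2), with -0.41 to 0.36 at 5 further probe sets. At the brightest of its probe sets, 201084_s_at, BCLAF1 differed by -0.06 (limma adjusted p = 0.589). BMF, a BH3-only gene named after its values were seen, had the largest difference of that list without passing (2.01 at 226530_at, SE 0.64, limma adjusted p = 0.118). Its signals were 99.7, 166 and 78.4 with CT45A1 and 74.2, 14.9 and 18.0 without it, the last 2 far below the array median.

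All 3 genes that passed downward encode 14-3-3 proteins, which retain phosphorylated BAD in the cytosol, while the other 4 genes of the 7 in that family did not pass. Of 15 genes tested in the list of BAD kinases and 14-3-3 proteins, 3 fell and 12 did not pass, with a median difference of -0.06. They passed through 5 of 30 probe sets, where 1.34% of all tested probe sets were lower. This list was chosen with earlier results of these data known, so the share is a description and was not tested. YWHAE fell at both its probe sets, by 0.71 and 0.28 (limma adjusted p = 0.00819 and 0.0314). Its signals at 210317_s_at were 768, 698 and 605 against 1125, 1154 and 1099, without overlap. SFN, the epithelial 14-3-3 sigma, fell by 0.28 and 0.32 at 33322_i_at and 33323_r_at, and differed by -0.49 at 209260_at (limma adjusted p = 0.0628). YWHAB fell by 0.27 at 217717_s_at, with -0.13 and -0.16 at its others. YWHAZ, the zeta isoform, lay between 0.02 and 0.23 at its 5 tested probe sets. YWHAG differed by 0.11, YWHAH by -0.13 and YWHAQ by -0.05 to -0.09. Only YWHAE at 210317_s_at kept its call whichever array was left out. Without overexpression replicate 1 or 2 or negative replicate 1 or 2, the calls at YWHAE 210996_s_at, YWHAB 217717_s_at and both SFN probe sets were lost (adjusted p = 0.0528 to 0.135), as was YWHAE 210996_s_at without overexpression replicate 3 (0.0563) and SFN 33322_i_at without negative replicate 3 (0.0622). Over all alternatives these 4 passed in 7 of 17, 7 of 16, 8 of 18 (SFN 33322_i_at, -0.16 and adjusted p = 0.402 with the actin covariate) and 10 of 17.

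Of 9 death receptor input genes tested, CASP8, the protease that cuts BID, rose by 0.37 at 213373_s_at (limma adjusted p = 0.0379) and differed by 0.56 at 207686_s_at (limma adjusted p = 0.0984). The CASP8 call held in 8 of 17 alternatives. It was lost after median centring (0.23, adjusted p = 0.102), with the actin covariate (adjusted p = 0.276), and without overexpression replicates 1, 2 or 3 or negative replicates 1 or 2 (adjusted p = 0.125, 0.111, 0.0581, 0.105 and 0.0969). CASP8 was the only gene of the death receptor list to pass, at 1 of 29 tested probe sets, where 3.23% of all tested probe sets passed. The median difference of that list was 0.14. Of 13 transcription factors and regulators acting on BH3-only genes, only MDM2, the ubiquitin ligase of p53, passed. That was 1 of 34 tested probe sets, near the share over all tested probe sets. MDM2 rose by 0.66 at 225160_x_at (limma adjusted p = 0.00694), with -0.48 to 0.20 at 7 further probe sets. None of 13 apoptosome and permeabilisation genes passed. VDAC1, an outer membrane channel, had the smallest p at 217140_s_at, where it differed by 0.23 (limma adjusted p = 0.0595). None of 7 genes of MCL1 turnover passed, and GSK3B, a kinase that marks MCL1 for degradation, had the smallest p there, with -0.36 at 226183_at (limma adjusted p = 0.0902).

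**Figure D4:**
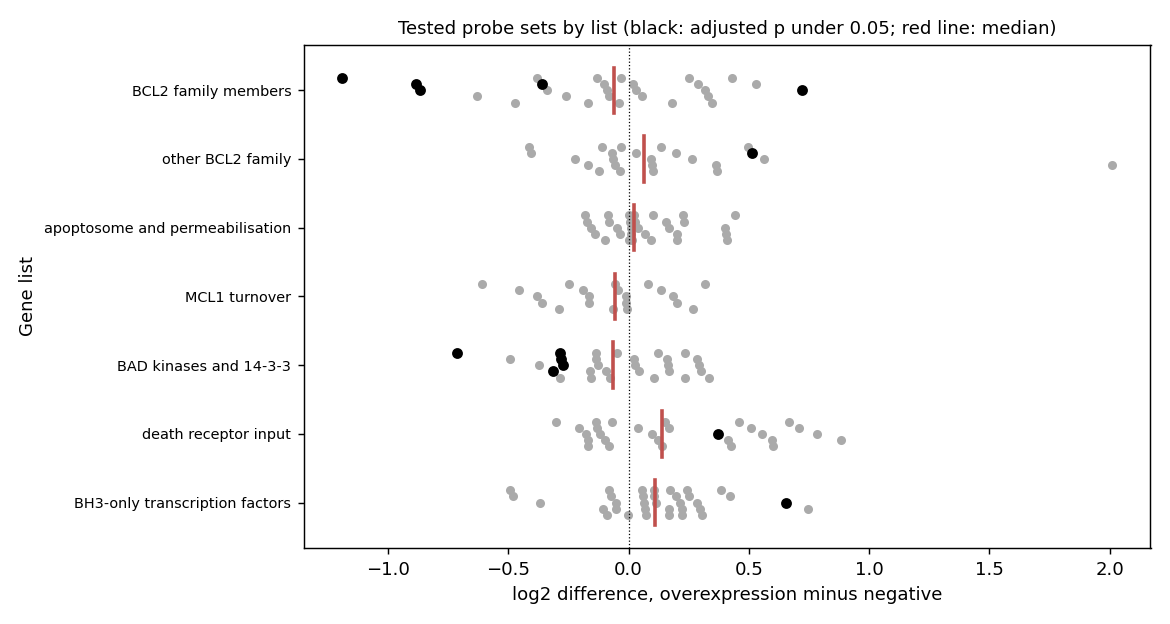
Log2 difference (overexpression minus negative, horizontal axis) at the 28 tested member probe sets and at the 169 tested probe sets of 6 lists of related genes (vertical axis); each point is a probe set, black marks an adjusted p under 0.05 and the red line is the list's median. The black member points lie at -1.19, -0.88, -0.87, -0.36 and 0.72, and the 5 black points of the 14-3-3 list all lie below 0.

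Across the 6 arrays, the genes whose signal followed each passing member most closely were sought among 11894 others, as a description. They were CCDC124, INO80E and ANXA10 for BAX at 211833_s_at (Pearson's r = 0.998, 0.997 and 0.995). For BCL2L1 at 206665_s_at they were SRPRB, C19orf33 and CXCL3 (r = 0.998, 0.995 and 0.993). For MCL1 at 200797_s_at they were RANBP9, FBXO36 and PBX2 (r = 0.997, 0.994 and 0.991). For BCL2L11 at 1558143_a_at they were NDUFV1, MICOS10P1 and STPG3 (r = 0.999, 0.995 and 0.995). With 6 arrays in 2 groups, such values largely follow the difference between the groups.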

How the data were processed

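Signals of 54675 probe sets on 6 arrays were used. The deposited intensity values are MAS5 signals. The submitters' processing notes name MAS5 and affy as the tools and state no version. RNA was labelled with a 3' expression kit, per the labels' protocols. The 2% trimmed mean was 500.1 on every array. Signals were taken to log2 without an offset, 62 control probe sets were left out, and 27618 probe sets above the array median on at least 3 arrays were fitted with limma 3.58.1 in R 4.3.3 (1 mean per group, eBayes with trend, two-sided, Benjamini-Hochberg). Single-gene annotation came from the platform table, updated through Entrez identifiers, and probe sequences were not used here. Promoter sequences are RefSeq's. Figures used Python 3.11.15 and matplotlib 3.10.9. The fit was tested on simulated data with shifts larger than most differences reported here. That test does not show how well smaller differences are recovered.

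The members and lists were chosen with earlier results of these data known. All members were named, and of the lists up to 4 passing genes each, or the gene with the smallest p. Alternatives were other scalings, filters, an offset of 32, other variance models, a replicate block, a covariate for the actin 3'/5' ratio, other probe set choices and leaving out each array.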

Additional observations from a re-analysis of the deposited data

How the results depend on the processing

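The 5 passing member probe sets kept their direction in each of the 15 to 17 alternatives, of 18, in which they were tested, and none of them kept its call in all of these. The member count was 9 after median centring, 0 without the variance trend, 1 with the actin ratio as a covariate, 2 with 1 probe set per gene, 1 when _x_at and _s_at probe sets were left out, and 0 to 6 when 1 array was left out (limma, against 5). In the same order of settings the count over all probe sets was 2975, 4, 702, 457, 446 and 156 to 1152, against 892, and 486 without a filter. Of these, 58.5% were higher as deposited and 13% after median centring. Pathway list genes numbered 18 after median centring, 0 without the variance trend, 1 without _x_at and _s_at probe sets, and 2 to 8 with 1 array left out, against 6. Some of these settings tested fewer probe sets or used fewer arrays. Leaving out 1 array did not always lower the counts: without negative replicate 3 they were 1152 in all and 6 for the members. The cause of the lower counts was not tested.

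With eBayes run without the trend, limma's adjusted p values were 0.105 and 0.109 for BAX (-1.19 and -0.87), 0.0632 for BCL2L1 (-0.88), 0.140 for MCL1 (-0.36) and 0.0922 for BCL2L11 (0.72). BCL2L1 kept -0.88 without a filter. With the actin ratio the values were -0.76, -0.56, -1.01 and -0.28 for BAX, BCL2L1 and MCL1, and MCL1 was -0.28 with cyclic loess. With 1 array left out, the ranges were -1.40 to -0.97 and -0.96 to -0.70 for BAX, -0.93 to -0.84 for BCL2L1, -0.43 to -0.33 for MCL1 and 0.61 to 0.84 for BCL2L11.

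Of the 23 probe sets that did not pass, 8 changed sign somewhere. With the actin ratio BCL2 203685_at was -0.14, BAK1 0.28, PMAIP1 204286_s_at 0.075 and MCL1 227175_at -0.73. After quantile normalization, median centring and cyclic loess, BCL2L11 1553088_a_at was -0.082, -0.091 and -0.072, BID 204493_at -0.050, -0.13 and -0.049, and MCL1 227175_at -0.096, -0.12 and -0.090. With 1 array left out, BAK1 ran from -0.20 to 0.0071, PMAIP1 204286_s_at from -0.090 to 0.034, BID 204493_at from -0.021 to 0.068, BID 211725_s_at from -0.11 to 0.039, MCL1 227175_at from -0.21 to 0.18 and BCL2L1 231228_at from -0.28 to 0.083.

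Between arrays with the same replicate number, deviations from the group mean had correlations of -0.0113, -0.00682 and 0.103. The other pairs of arrays across the groups ranged from -0.1 to 0.106. With 3 arrays per group, these values cannot decide whether the numbers pair the arrays, and the reported fit did not pair them. With the replicate block 7 member probe sets and 1189 in all passed, against 5 and 892 without it. The 6 arrays and the absence of detection calls limit the precision, most for the dim BCL2 probe sets.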
